A study of Mus musculus with 21 samples.

Results

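Spinal cord RNA of mice near postnatal day 60 (P60) was compared between 3 animals heterozygous for a conditional Tardbp allele in Cre-expressing cells (cHET) and 3 floxed control animals. These 6 libraries are 6 of the 21 in the study, and were chosen by their labels alone. Control mice carried Tardbp-fl/fl and no Cre. The cHET mice carried Cnp-Cre and Tardbp-fl/+, and conditional knockout mice (cKO), used here for reference levels only, carried Cnp-Cre and Tardbp-fl/fl. All were C57BL/6. The controls were labelled female and 74 days old, and the cHET mice were labelled male and 65, 63 and 60 days old. The 3 cKO mice were labelled male and 61, 61 and 64 days old. A set of 12 P21 libraries (4 of each genotype, all labelled 21 days old, with 2 labelled female and 2 labelled male in each) served as a second look at the same genotypes. The animals carried separate mouse numbers. Since control and cHET mice differ in Cre, in the number of floxed alleles and in age, these differences cannot be told apart at P60.

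Tardbp encodes TDP-43, a nuclear RNA-binding protein that acts in splicing and RNA stability and is found in cytoplasmic inclusions in amyotrophic lateral sclerosis (ALS) and frontotemporal dementia (FTD). Oligodendrocytes wrap axons in myelin, and their most abundant transcripts encode the proteins and lipid enzymes of that membrane. Cnp encodes 2′,3′-cyclic nucleotide 3′-phosphodiesterase, an enzyme that keeps cytoplasmic channels open in myelin. In the Cnp-Cre line in common use, Cre was inserted into the Cnp gene, so that it is driven by the Cnp promoter in oligodendrocytes, in part of their precursors and in Schwann cells. The labels do not describe the Cre allele further. The stretch directly upstream of Cnp is shown because it is the regulatory sequence named in the Cre driver. It is the forward strand of chr11:100574689-100574903 in GRCm38.p6, from RefSeq, 215 bases that end before the start of Cnp in the GENCODE M21 annotation. Capitals mark the SOX core ACAAAG.

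Cnp upstream: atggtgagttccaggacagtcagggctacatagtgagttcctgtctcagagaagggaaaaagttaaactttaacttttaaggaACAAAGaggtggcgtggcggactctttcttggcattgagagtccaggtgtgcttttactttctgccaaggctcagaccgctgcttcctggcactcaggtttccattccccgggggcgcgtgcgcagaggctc

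On either strand the SOX core occurred 1 time, at base 84 of the printed stretch. The same letters were in 14.5% of 32851 RefSeq promoter stretches of this length. The letters CAGCTG of an E-box, held by 11.1% of the stretches, were not in this window on either strand. The same was true of GGGCGG, a GC box (27.7% of the stretches), of the letters CCAAT (30.4%) and of the TBP motif TATAAA (9.75%).

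Each library gave a normalized signal per gene, in scaled reads per base, for 25127 genes. The signal summed to between 12.49 M and 13.23 M (M for mega) in the 6 libraries, and the reads behind it are unknown. Defining genes of the cord's cell types were present in all 6 libraries. Mbp lay between 271641 and 390401, the neuronal gene Snap25 between 46533 and 50920, the astrocyte gene Aqp4 between 13010 and 18513 and the microglial gene Cx3cr1 between 819 and 941. The motor neuron genes Chat and Prph were not analysed here. A principal component analysis did not order the libraries by genotype, since the first component (26.6% of the variance) placed control 1 and cHET 3 together, away from the others. Genes of the mitochondrial genome took 16.09% and 16.2% of the signal in those libraries, and 10.16% to 13.09% in the other 4. Control 1 also held the most haemoglobin RNA, with Hba-a1 at 17457 against 4693 and 3793 in the other controls and 2169 to 4151 in cHET. Prx, a protein of peripheral myelin, was 222 in cHET 2 and at most 15.9 in the other 5 libraries.

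The sex labels of the P60 controls did not match their transcripts. Ddx3y, a Y-linked RNA helicase gene, was 1113, 859 and 905 in the controls labelled female and 970, 975 and 1166 in the cHET mice labelled male. At P21 the same gene was at most 123 in every library labelled female and at least 2401 in every library labelled male. The Y-linked demethylase gene Kdm5d was 454, 388 and 468 in the P60 controls and 420, 455 and 490 in cHET. Eif2s3x, an X-linked gene that escapes inactivation, was 704, 693 and 751 in controls and 733, 745 and 780 in cHET. At P21 it was 0.61 ± 0.05 (SE) lower on the log2 scale in males than in females (adjusted p = 1.6e-05 in limma). Of the 9 genes called between the sexes at P21 (0.05% of 17989 tested), 7 were tested between control and cHET at P60 (not Gm26992 and Gm4017) and 0 of these were called. The P60 controls are therefore referred to below by genotype, not by sex.

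**Figure D1:**
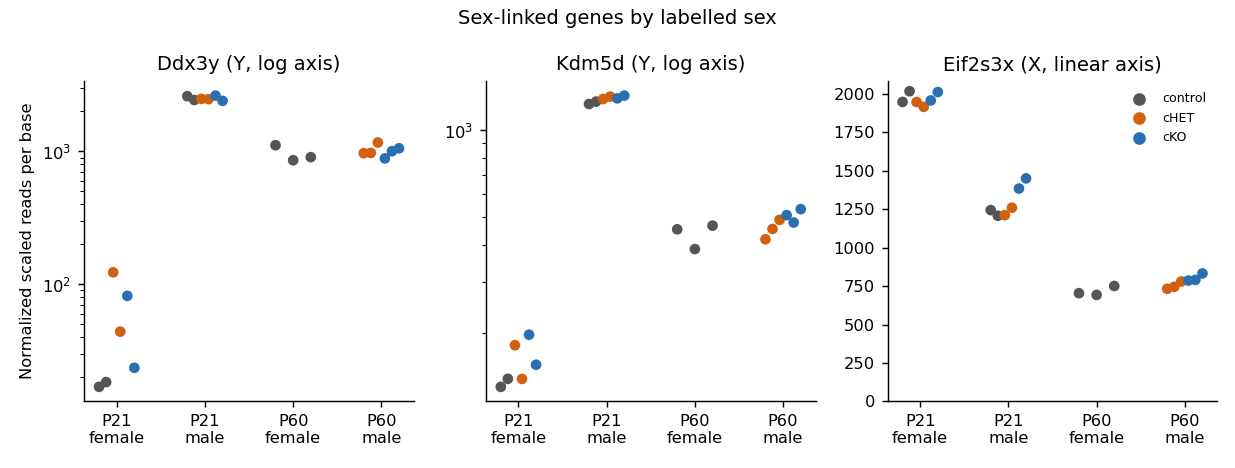
Normalized scaled reads per base (y axis; log axes for Ddx3y and Kdm5d, a linear axis from 0 for Eif2s3x) in all 21 libraries, grouped by age and labelled sex (x axis) and coloured by genotype; each point is a library. The 3 P60 controls labelled female, at 859 to 1113 for Ddx3y, lie among the P60 libraries labelled male.

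Few genes separated cHET from control cord at P60. Of 16833 genes tested, 3 were called (0.0178%; adjusted p below 0.05, Benjamini-Hochberg over all tested genes, limma). Cnp fell (1 gene lower, 0.00594%), and Hectd4 and Bcas1 rose (2 higher, 0.0119%). At an unadjusted p below 0.05 there were 912 genes (5.42%), of which 595 were higher (3.53%) and 317 lower (1.88%) in cHET. Every cHET library lay above every control library for 1038 genes (6.17%) and below for 674 (4%). For scale, 4360 genes (25.9%) were called between cKO and the same controls.

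Cnp (ENSMUSG00000006782; GRCm38 chromosome 11, 100574904 to 100591729) was 14546, 15474 and 15611 in control 1, 2 and 3. It was 8720, 8892 and 8877 in cHET 1, 2 and 3. The groups were far apart, and the 3 cHET values lay closer to each other than the controls did. The mean fell from 15210 ± 579 to 8830 ± 95.2 (SD, n = 3), or to 58.1% of control. The log2 change was -0.78 ± 0.06 (SE; 95% interval -0.92 to -0.65; adjusted p = 0.0011, limma). In the cKO libraries Cnp was 10696, 12119 and 11282, between the other groups. At P21 it was 84306, 87736, 76936 and 88022 in controls and 46589, 46724, 44181 and 49396 in cHET. That is 55.5% of control, with a log2 change of -0.85 ± 0.07 (adjusted p = 9.5e-05, limma). The P60 change differed from the P21 change by 0.07 (95% interval -0.13 to 0.26), a difference that did not pass (adjusted p = 0.98, limma).

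Tardbp (ENSMUSG00000041459; chromosome 4, 148612382 to 148627019), the gene with the floxed allele, was 828, 884 and 937 in controls. It was 925, 932 and 906 in cHET. The cHET values lay inside the range of the controls. The log2 change was 0.06 ± 0.06 (95% interval -0.08 to 0.20; adjusted p = 0.99, limma), so that a decrease beyond 0.08 lay outside the interval. At P21 the change was -0.08 (95% interval -0.21 to 0.05; adjusted p = 0.81). The cord also holds cells without Cre, and the gene-level signal does not resolve the floxed exons, so these values do not check recombination. In whole tissue, fewer cells of a type and less RNA per cell cannot be told apart, for Tardbp as for the genes below.

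Bcas1 (ENSMUSG00000013523; chromosome 2, 170346991 to 170427845), a gene of newly formed and myelinating oligodendrocytes, was 5059, 5692 and 5127 in controls. It was 7925, 7672 and 7354 in cHET. All 3 cHET values lay above all controls, and the mean was 144.5% of control (log2 change 0.53 ± 0.06, 95% interval 0.39 to 0.67; adjusted p = 0.026, limma). The cKO values of 3832, 3986 and 4181 lay below the controls. At P21 Bcas1 was 7987, 8489, 7926 and 8360 in controls and 10004, 10014, 9805 and 9941 in cHET. Those groups did not overlap either, but the change of 0.28 ± 0.06 did not pass (adjusted p = 0.29). The difference between ages was 0.25 (95% interval 0.07 to 0.44; adjusted p = 0.94). The P60 call was lost without any one of control 1, control 3, cHET 1, cHET 2, cHET 3, cKO 1 or cKO 2, with log2 changes of 0.50 to 0.56 and adjusted p of up to 0.17.

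Hectd4 (ENSMUSG00000042744; chromosome 5, 121220219 to 121368577), which encodes a large protein with a HECT ubiquitin ligase domain, was 600, 583 and 647 in controls. It was 923, 908 and 895 in cHET. The lowest cHET value stood well above the highest control, and the mean was 148.9% of control (log2 change 0.58 ± 0.07, 95% interval 0.43 to 0.72; adjusted p = 0.026, limma). The cKO values of 596, 660 and 660 lay near the controls, and below cHET by 0.51 ± 0.07 (adjusted p = 2.2e-04, limma). At P21 Hectd4 was 1807, 2378, 2096 and 2187 in controls. It was 2102, 2192, 2178 and 1391 in cHET, with groups that overlapped (log2 change -0.12, adjusted p = 0.88). The difference between ages, 0.70 (95% interval 0.34 to 1.06), did not pass (adjusted p = 0.93, limma). The P60 call was lost without any 1 of the 6 control and cHET libraries or without cKO 2 (log2 changes of 0.54 to 0.62, adjusted p of up to 0.21).

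**Figure D2:**
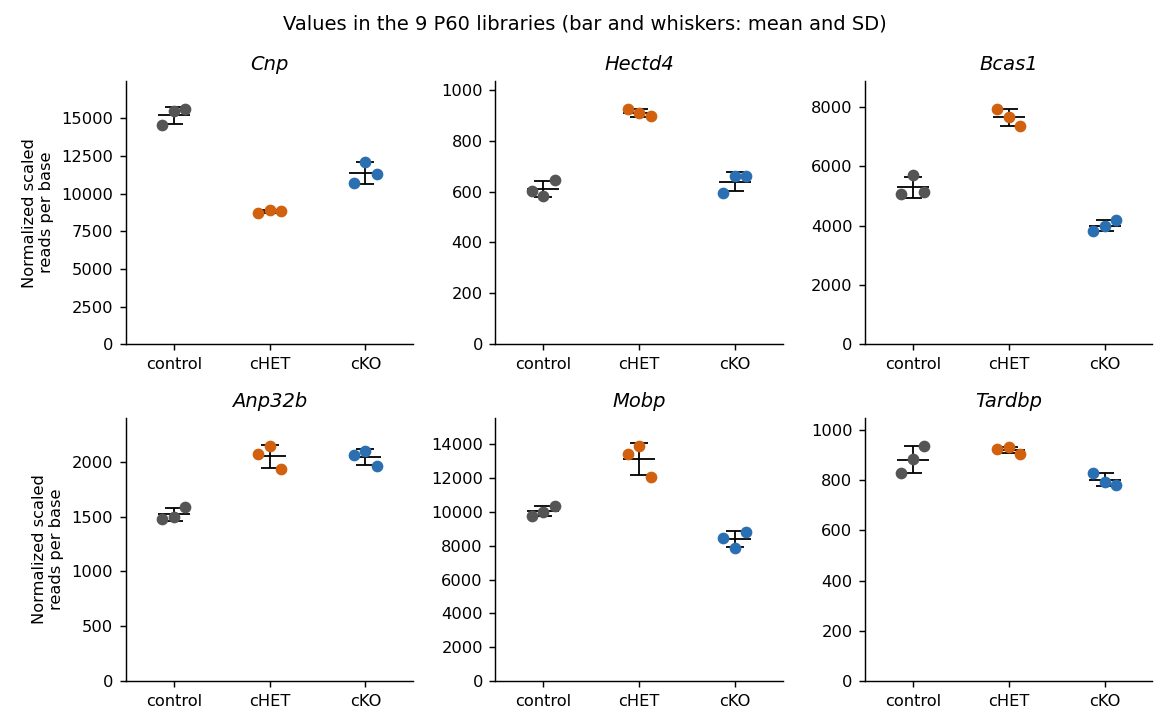
Normalized scaled reads per base (y axis, from 0) of 6 genes in the 9 P60 libraries by genotype (x axis); points are libraries, bars and whiskers the mean and SD (n = 3). Cnp is lowest in cHET at 8720 to 8892, Hectd4 and Bcas1 are highest in cHET, and Tardbp of cHET lies within the control range.

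The authors' deposited table of this comparison holds 14 genes at a q-value below 0.05 (0.0827% of 16928), 11 with positive (0.065%) and 3 with negative effects (0.0177%), and includes the 3 genes called here. Those that follow outside the naming rule were named after their values were seen. Among the others were Anp32b, a nuclear acidic protein gene (q = 2.2e-07), the myelin genes Mobp (q = 2.0e-05) and Cldn11 (q = 0.016), and Cldn14, a claudin gene (q = 0.021). Mapk4 (q = 0.033), Trak2 (q = 0.047), Rhoj (q = 0.047), Jcad (q = 0.015) and Prr18 (q = 9.9e-04) were also on the positive side. Serpind1 (log2 effect -0.90, q = 9.0e-06) is in the authors' deposited table only. Prr18 has other values in the per-library data, where its groups overlapped. The remaining gene, AC154550.1 (log2 effect -1.50, q = 0.016), had the same mean of natural logs (5.52) as a second model of Nnt in the per-library data.

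Among genes that missed the threshold, Anp32b (chromosome 4, 46450902 to 46472657) was 1478, 1500 and 1585 in controls and 2071, 2145 and 1934 in cHET. The groups did not overlap (0.43 ± 0.06, adjusted p = 0.082, limma), and the cKO values of 1963 to 2102 lay in the cHET range. Rhoj, a small GTPase gene of endothelial and glial cells, was 122, 148 and 128 in controls and 186, 221 and 194 in cHET. Its cKO values were 990 to 1141, far above both. Cldn14 was 85.6, 105 and 93.0 in controls and 152, 160 and 151 in cHET. At P21 it was also higher in cHET without overlap (0.42, adjusted p = 0.28). Kif19a, a kinesin gene of motile cilia, was 184, 147 and 133 in controls and 235, 286 and 251 in cHET (adjusted p = 0.33). Other genes among the 20 of smallest p that were higher in cHET were Rgs14 (1.37), Oxr1 (0.39) and C3ar1 (0.55), whereas 9930012K11Rik (-0.75) and Dnah17 (-0.46) were lower, all as log2 changes with adjusted p of 0.36 or more. Rgs14 and Oxr1 have other values in the authors' deposited table.

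Nnt encodes a proton-pumping transhydrogenase of mitochondria, and its 2 models overlap on chromosome 13. The first (ENSMUSG00000025453) was 104, 89.5 and 85.1 in controls and 200, 160 and 204 in cHET (adjusted p = 0.20, limma). The second (ENSMUSG00000116207) was 500, 472 and 539 in controls and 183, 202 and 151 in cHET (log2 change -1.50 ± 0.26, adjusted p = 0.30). The second model held 82.77% to 86.36% of the sum of both in controls, 42.5% to 55.76% in cHET and 30.16% to 62.51% in cKO. The P60 controls thus stood apart from both Cre-carrying genotypes, without overlap. At P21 this share was 79.21% to 84.32% in controls, 77.81% to 92.95% in cHET and 74.8% to 96% in cKO, with overlap among all 3. The models share sequence, so the split of reads between them is uncertain. The sum of both was 604, 561 and 624 in P60 controls and 383, 363 and 355 in cHET. In cKO it was 425, 400 and 347, also below every control. At P21 the sum overlapped, at 616 to 968 in controls and 708 to 1432 in cHET. The cause was not tested. Itpa-ps1, a processed pseudogene, was listed at 0 in all P60 control and cKO libraries and at 20.5, 22.2 and 12.4 in cHET (adjusted p = 0.082, limma). It was tested only because the 3 cHET libraries reached 5, so its p is not used as support. Its values are also uncertain because it may share reads with Itpa.

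**Figure D3:**
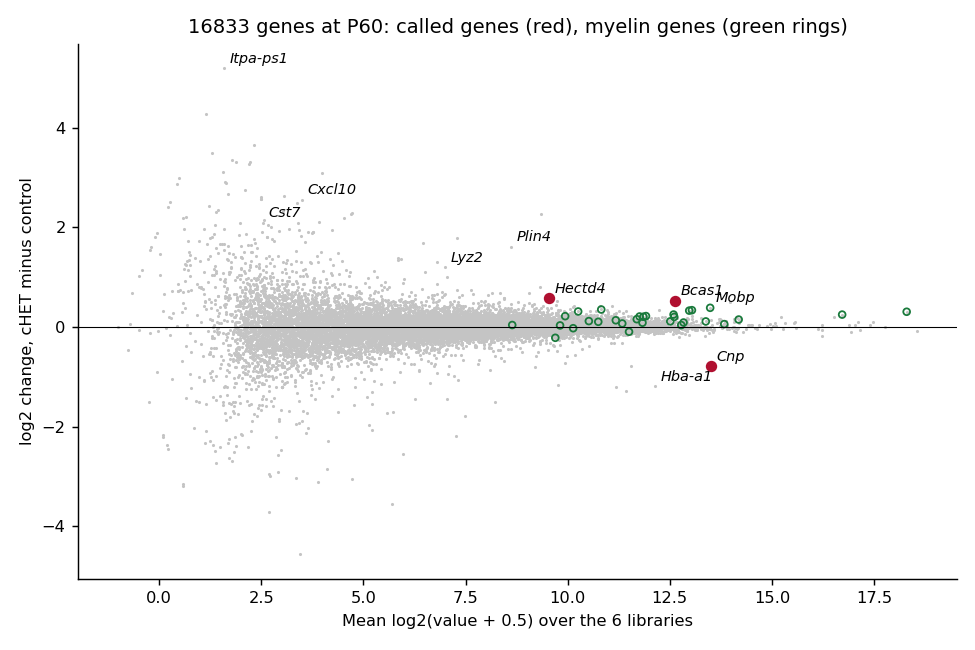
The log2 change of cHET against control (y axis) of 16833 genes at P60 against their mean log2(value + 0.5) in the 6 libraries (x axis); red points are the 3 called genes and green rings 30 myelin genes. Cnp lies at -0.78, below nearly all genes of similar level, while 27 of the 30 myelin genes lie above 0.

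The other genes of myelin lay mostly higher in cHET, although none passed the test. A list of 30 myelin and mature oligodendrocyte genes, all tested and without Cnp, held 0 called genes. At an unadjusted p below 0.05, 14 were higher (46.7% against 3.53% of all genes) and 0 lower (against 1.88%). In the authors' deposited table, by q, 2 were positive, against 0.065% of all genes. Every cHET library lay above every control for 15 of the 30 (50% against 6.17% of all genes), and below for 1, Car2. The log2 change was above 0 for 27 (90% against 53.1%), with a median of 0.144 against 0.010 over all tested genes. The summed signal of the list was 494683, 549244 and 520280 in controls and 615740, 673898 and 589674 in cHET. Mbp alone makes up more than any other member of that sum. Without control 1 and cHET 3 the median was 0.156.

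Structural proteins of compact myelin led this list. Mobp (chromosome 9, 120149707 to 120181484), a protein of the major dense line, was 9750, 10021 and 10350 in controls and 13449, 13904 and 12084 in cHET. Its log2 change was 0.39 ± 0.07 (adjusted p = 0.30, limma), and it was higher without overlap at P21 as well (0.35, adjusted p = 0.28). Mbp (chromosome 18, 82475146 to 82585637), myelin basic protein, was 271641, 307582 and 290074 in controls and 359003, 390401 and 327859 in cHET. Each cHET value exceeded each control value, with a log2 change of 0.31 ± 0.10 (adjusted p = 0.85). Mal, a proteolipid of myelin sorting, was 6994, 7631 and 7866 in controls and 9128, 10363 and 8987 in cHET (0.34 ± 0.09, adjusted p = 0.63).

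Adhesion, junction and surface proteins followed in the same direction. Cldn11, the tight junction protein of myelin, was 7175, 6988 and 7366 in controls and 8311, 8792 and 10048 in cHET (0.33 ± 0.07, adjusted p = 0.60, limma). Mog, a protein of the outermost myelin surface, was 3392, 3540 and 3388 in controls and 3925, 4257 and 3747 in cHET. Its change of 0.21 ± 0.09 had an adjusted p of 0.92. Mag, of the inner myelin surface, was 16429, 18705 and 17939 in controls and 19584, 20150 and 19138 in cHET (0.15 ± 0.09, adjusted p = 0.97). The groups did not overlap for either gene. Gjb1, a connexin gene, was at 0.11 with overlap.

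Cytoskeletal and lipid genes of the lineage were less uniform. Gsn, which severs actin, was 1606, 1595 and 1600 in controls and 1999, 2309 and 1849 in cHET (0.35 ± 0.09, adjusted p = 0.61, limma). Tspan2, a tetraspanin, was at 0.31 and Fa2h, Gal3st1 and Ugt8a, enzymes of myelin sphingolipids and galactolipids, at 0.16, 0.22 and 0.25 on the log2 scale. Of these genes Ugt8a alone overlapped between groups. The transcription factors Myrf (0.22) and Sox10 (0.14), which drive the myelin programme, were higher without overlap, and Nkx6-2 (0.04) overlapped. Opalin, a membrane protein of mature oligodendrocytes, was the lowest member at -0.22 and overlapped. Of 10 septin and cytoskeletal genes of myelin, 0 were called and 3 were higher without overlap (30% against 6.17%), Gsn, Tppp and Sept8, with a median of 0.072.

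At P21 the same 30 genes had a median of 0.142 against 0.006 over all genes. Of these 30, 27 were above 0 (90%) and 9 were higher in cHET without overlap (30%, against 3.12% of all genes tested at P21) and 0 lower. Mobp and Klk6, a protease of mature oligodendrocytes, were higher without overlap at both ages, which held for 0.374% of all genes tested at both. Car2 reversed, lower without overlap at P60 (-0.09) and higher without overlap at P21 (0.16). Hapln2, which organizes the perinodal matrix, was called at P21 (0.44 ± 0.06, adjusted p = 0.039, limma) as 1 of 2 genes with Cnp (0.0111%; 0.00556% in each direction). At P60 Hapln2 was 1353, 1455 and 1409 in controls and 1597, 1659 and 1346 in cHET, with overlap (0.12, adjusted p = 0.99). The P21 call of Hapln2 ended without control 1, 3 or 4, cHET 1, 2 or 3, cKO 1 or cKO 3. The P21 count was 26 without cHET 4. The authors' deposited table has 35 genes (0.193%) at a q below 0.05 there. No gene of 16570 passed the test of a difference between ages (0%; limma), and 856 had an unadjusted p below 0.05 (5.17%). The ages were sequenced with different library kits, so levels were not compared between them.

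**Figure D4:**
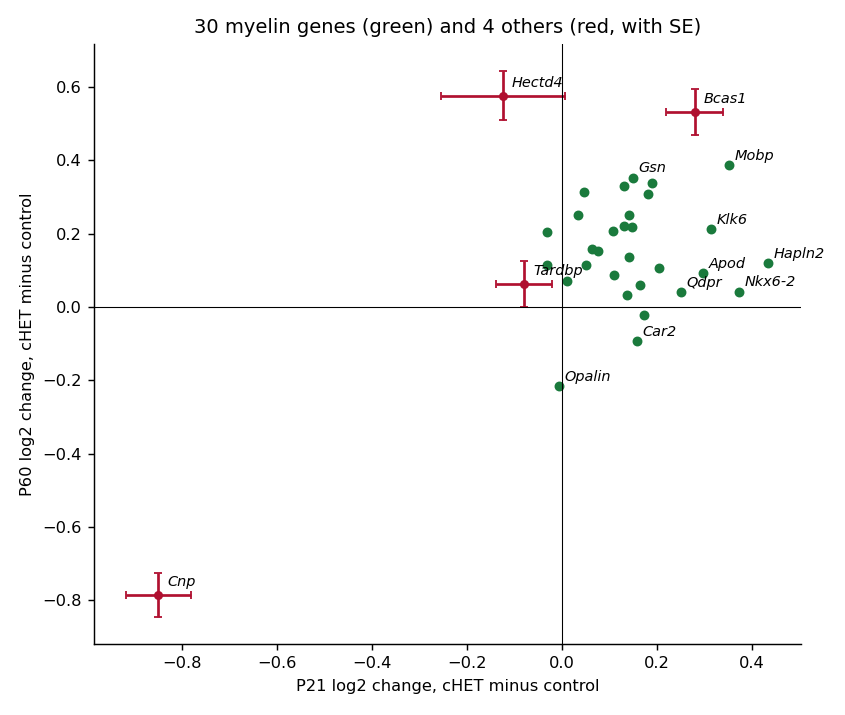
The log2 change of cHET against control at P60 (y axis) and at P21 (x axis) for 30 myelin genes (green) and for Cnp, Bcas1, Hectd4 and Tardbp (red, with SE). Of the 30 genes, 25 lie above 0 at both ages, Cnp lies below 0 at both, and Hectd4 lies high at P60 only.

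Of 10 tested genes of newly formed oligodendrocytes, 1 was called (Bcas1) and 4 were higher without overlap (40% against 6.17%), with a median of 0.158. Besides Bcas1 these were Fyn (0.31), a kinase that triggers local Mbp translation, Nfasc (0.20), a paranodal adhesion protein, and Sirt2 (0.18), a tubulin deacetylase. At P21 the median of this list was -0.010, with 5 of 10 genes above 0 (50% against 51.8%), Bcas1 alone higher without overlap, Fyn at 0.01 and Nfasc at -0.03. Gpr17, a receptor of differentiating cells, was 1419, 1417 and 1403 in controls and 1474, 1417 and 1775 in cHET, with overlap. The cKO sums of this list were 30225 to 31719, against 18822 to 20133 in controls and 23444 to 24725 in cHET. The members behind these sums did not move alike. The Bcas1 mean was 5293 in controls, 7650 in cHET and 4000 in cKO. In the same order, Fyn was 2487, 3108 and 4303, and Nfasc 5816, 6701 and 8107. Of 14 precursor genes 0 were called and 4 were above 0 (28.6% against 53.1%), with a median of -0.056. Without overlap 1 was higher (7.14% against 6.17%), the matrix glycoprotein gene Tnr, and 1 lower (7.14% against 4%), the sialidase gene Neu4. Olig1, a lineage transcription factor, was at -0.05 with overlap.

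Sterol genes were centred on 0 at P60 and lay mostly above it at P21. Of 20 cholesterol biosynthesis genes 0 were called at P60, 10 were above 0 (50% against 53.1%) and the median was 0.000. At P21 0 were called, 19 were above 0 (95% against 51.8%) and the median was 0.080. Sqle, squalene epoxidase, was 2492, 2565 and 2534 in controls and 2520, 2680 and 2434 in cHET. Its 95% interval was -0.13 to 0.15, and the cKO values were 663 to 746. Hmgcs1, HMG-CoA synthase, was at 0.18 (adjusted p = 0.92, limma) and has other values in the authors' deposited table. Among 12 regulators of SREBP and sterol uptake 0 were called and 1 was lower without overlap (8.33% against 4%). That gene was Insig1, which retains SREBP in the endoplasmic reticulum, at -0.17 (adjusted p = 0.89, limma). Of 16 fatty acid genes 0 were called, with a median of 0.021.

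Genes of disease-associated microglia lay mostly higher in cHET, although none passed the test. Their summed signal was 35489 to 39171 in controls and 38838 to 42342 in cHET, which overlap, and 204569 to 256747 in cKO. Of 20 tested genes 0 were called and 18 were above 0 (90% against 53.1%), with a median of 0.118. Without overlap 5 were higher (25% against 6.17% of all genes), which were Apoe, Ctsz, Cst7, Lyz2 and Gpnmb, and 1 was lower, Spp1 (5% against 4%). Without control 1 and cHET 3 the median was 0.053. Cst7, cystatin F, was 2.67, 1.09 and 3.99 in controls and 8.08, 14.4 and 13.3 in cHET. These values were low, and the cKO values were 457 to 804 (cHET against control 2.09 ± 0.38, adjusted p = 0.34, limma). Lyz2, lysozyme, was 73.9, 99.3 and 81.7 in controls and 129, 238 and 237 in cHET, with 6051 to 9832 in cKO (adjusted p = 0.48). Gpnmb, a phagocyte glycoprotein, was 32.2, 29.8 and 33.6 in controls and 38.4, 79.5 and 62.7 in cHET (adjusted p = 0.69). For all 3 genes the cHET values lay above the controls and far below cKO. Trem2, a lipid receptor of microglia, was 115, 143 and 120 in controls and 121, 137 and 146 in cHET, and Apoe was 16855, 18599 and 18522 in controls and 19826, 20781 and 19424 in cHET (0.15, adjusted p = 0.95).

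Of 16 genes of homeostatic microglia 0 were called and 5 were higher without overlap (31.2% against 6.17%). C1qa, a chain of complement C1q, was 483, 533 and 440 in controls and 637, 655 and 660 in cHET (0.43 ± 0.14, adjusted p = 0.81, limma). C1qb (0.30) and C1qc (0.31) followed, and C1qa was higher without overlap at P21 as well (0.27). Tmem119 (0.04), P2ry12 (-0.08) and Cx3cr1 (0.07) overlapped between groups. Cd48, a leukocyte receptor among the 20 genes of smallest p, was 5.4, 5.67 and 4.32 in controls and 9.79, 12.5 and 14.4 in cHET. The summed signal of the 8 leukocyte genes was 114 to 126 in controls and 107 to 159 in cHET.

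Interferon response genes had the highest list median, 0.387, which rested on cHET 3. Of 19 genes 0 were called and 1 was higher without overlap (Oas1a; 5.26% against 6.17%). Ifit3 was 212, 263 and 196 in controls and 222, 277 and 752 in cHET. Cxcl10 was 14.3, 1.94 and 2.28 in controls and 12.4, 14.4 and 105 in cHET. For both genes cHET 3 stood far above all other libraries, and without it the list median was 0.005. Antigen presentation genes had a median of 0.044, and B2m was at -0.01.

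None of the astrocyte or neuronal genes was called. Gfap was 32060, 34267 and 33723 in controls and 34383, 38712 and 32442 in cHET (0.07, adjusted p above 0.99, limma). Of 15 astrocyte genes 0 were called and 12 were above 0 (80% against 53.1%), with a median of 0.103, and 3 were higher at an unadjusted p below 0.05 (20% against 3.53%). The glutamate transporter genes Slc1a2 (0.13) and Slc1a3 (0.25) were higher without overlap (13.3% against 6.17%). At P21 the astrocyte median was 0.012, with 8 of 15 genes above 0 (53.3% against 51.8%) and 0 higher without overlap. Lower without overlap at P21 were 2 genes (13.3% against 2.02%), Slc1a2 (-0.23) and Slc4a4 (-0.27). Of 17 reactive astrocyte genes 0 were called, 10 were above 0 (58.8% against 53.1%) and 1 was higher without overlap (5.88% against 6.17%). That gene was Lcn2, a siderophore-binding protein, at 32.9, 22.4 and 24.2 in controls and 50.6, 48.3 and 40.5 in cHET (adjusted p = 0.61, limma). Of 17 neuronal genes 0 were called, 7 were above 0 (41.2%), none was without overlap between groups, and the median was -0.011. Of 7 tested motor neuron genes 1 was lower without overlap (14.3% against 4%), the neuropeptide gene Calca (-0.86, adjusted p = 0.61), while Slc18a3, the vesicular acetylcholine transporter, was at -0.11.

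**Figure D5:**
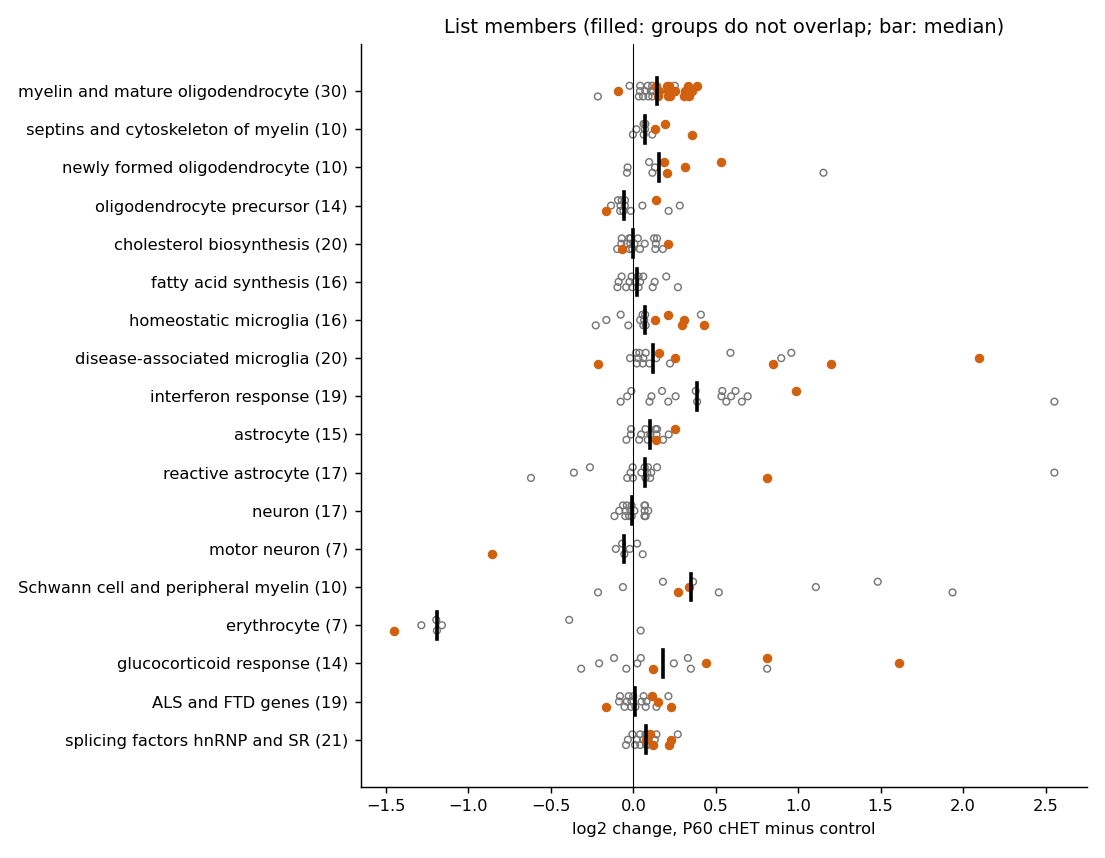
The log2 change of cHET against control at P60 (x axis) for the tested members of 18 gene lists (rows, with the number tested); filled points are genes whose control and cHET values do not overlap, and black bars are medians. Myelin genes lie mostly above 0, cholesterol and neuronal genes spread around 0, and erythrocyte genes lie low, where control 1 was high.

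Among genes that respond to glucocorticoids, Plin4 differed most. Plin4, a lipid droplet coat protein, was 159, 204 and 343 in controls and 723, 1114 and 397 in cHET (1.61 ± 0.34, adjusted p = 0.59, limma), and its P21 change was 1.59 (adjusted p = 0.55). Of 14 tested genes of this list 0 were called and 4 were higher without overlap (28.6% against 6.17%), with a median of 0.181 at P60 and 0.424 at P21. Without cHET 2 the P60 median was 0.052. Mt1 and Mt2, metallothioneins that bind zinc, were at 0.33 and 0.35. Of 18 circadian clock genes and 13 immediate early genes, 0 were called in either list. Immediate early genes had a median of 0.211, with 10 of 13 above 0 (76.9% against 53.1%) and 2 higher without overlap (15.4% against 6.17%). At P21 their median was -0.156, with 1 of 13 above 0 (7.69% against 51.8%). Clock genes had a median of 0.080, with 15 of 18 above 0 (83.3%) and 3 higher without overlap (16.7%). At P21 the clock median was 0.048, with 10 above 0 (55.6%).

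RNA-binding protein and disease genes were also examined. Of 19 ALS and FTD genes 0 were called, with a median of 0.013. Stmn2, a microtubule regulator whose transcript depends on TDP-43 in human neurons, was 5960, 6966 and 7214 in controls and 6687, 6280 and 6571 in cHET. Of 21 hnRNP and SR splicing factor genes 0 were called, 5 were higher without overlap (23.8% against 6.17%) and the median was 0.079, against 0.010 over all tested genes. Srsf11 had the smallest p of these 5 (0.22, adjusted p = 0.73), and Hnrnpa2b1 was at 0.14 with overlap. Near the engineered loci, 0 of 56 genes within 1 Mb of Cnp and 0 of 38 within 1 Mb of Tardbp were called, with medians of 0.047 and 0.026. Hap1, of neuronal vesicle transport, was 966, 965 and 1029 in controls and 1112, 1041 and 1105 in cHET (0.14, adjusted p = 0.91). It had the smallest p near Cnp.

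The erythrocyte and Schwann cell lists moved with single libraries. The erythrocyte median of -1.19 became -0.46 without control 1. The Schwann cell median of 0.351 became 0.098 without cHET 2, the library with the high Prx value. Mal and Pmp22, members of that list that oligodendrocytes also express, were higher without overlap. Of 10 ependymal genes 0 were called, 2 were higher without overlap (20% against 6.17%) and 1 was lower (10% against 4%). Their median of 0.242 became 0.064 without control 1 and cHET 3. Ccdc153, of motile cilia, was 69.1, 62.0 and 66.1 in controls and 99.7, 105 and 133 in cHET (0.76, adjusted p = 0.61, limma). Foxj1, of the same list, was at 0.04 with overlap. The part of peripheral myelin or blood in the values above was not tested.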

How the data were processed

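RNA was extracted with Trizol from frozen spinal cord; P60 libraries were made with the NEXTflex Rapid Directional kit and P21 libraries with the TruSeq kit, per the labels. The deposited per-library signal, computed by the authors for each gene, is in normalized scaled reads per base; the submitters' processing notes name kallisto 0.43.0, sleuth 0.28.1 and GRCm38. The sources used here do not give the annotation release. The authors' table holds, per the file headers, effects as natural log differences (of value + 0.5, tested on the files), divided here by the natural log of 2, and the p-value and q-value as deposited. The per-library means equal those in the authors' P60 table (within 1e-06) for 15368 of 16928 genes, differ for 871 and are absent for 689. Names and positions are from GENCODE M21 (GRCm38).

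Genes reaching 5 in at least 3 P60 (or 4 P21) libraries were tested on log2(value + 0.5), so changes of low genes are understated. At each age the 3 genotypes entered a single fit with limma 3.58.1 (limma-trend, 2-sided moderated test, Benjamini-Hochberg over all tested genes, threshold 0.05) in R 4.3.3; figures used matplotlib 3.10.9. SE is of the log2 change, SD over libraries. Not overlapping means every library of 1 group above every library of the other; with 3 against 3 libraries an exact permutation test cannot go below 0.1. Depth is unknown. The comparison, the gene lists and the naming rule were chosen with earlier results of these data known. Named were Tardbp, Cnp, called genes, the 20 smallest p, set members of each list and, as examples of the lists, others picked after their values were seen.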

Additional observations from a re-analysis of the deposited data

Results flagged for a closer look

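Hectd4 at P21 held a library that stood apart in its group. The 4 cHET values were 2102, 2192, 2178 and 1391, and the gap below the others was 0.888 of the group's range, above Dixon's 95% critical value for 4 samples. Chance places about 1 in 20 groups there. The P60 groups have 3 libraries and were not examined in this way.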

How the results depend on the processing

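No paired analysis was possible because the labels give no replicate numbers shared between the groups. Cnp was called in all 23 alternatives, with log2 changes of -0.82 to -0.76, and Tardbp in none (0.02 to 0.11). Hectd4 and Bcas1 each lost their call in 10 of 23, with changes of 0.54 to 0.62 and 0.49 to 0.59. The count of 3 became 6 (4 up, 2 down) in a fit of all 6 groups and 14 by the authors' q, was 1 to 4 without a single library, and was 2 (Cnp and Adam11) without control 1 and cHET 3 together. With only the 2 groups compared it was 2, Cnp and the second Nnt model, both lower in cHET. The P21 count of 2 became 1 with no filter, quantile normalization, all 6 groups or sex as a term, 15 with array weights and 35 by the authors' q, and was 1 to 26 without a single library. The 9 genes between the sexes became 0 without chromosomes X and Y, and 7 to 10 without a single library. The age difference, 0 in other fits, gave 3 genes without control 1 and cHET 3 together and 0 to 1 without a single library. List medians were examined under the same alternatives after the data were seen. Of 780 values, 13 moved by more than the spread between libraries. This rule passes over large shifts where libraries differ widely. It marked no move for the interferon median, which ran from -0.03 to 0.66. The same held for the Schwann cell median, which ran from 0.10 to 0.41. The cause of these changes was not tested.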

Other observations

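Adam11, a neuronal gene of the metalloprotease family, was 294, 551 and 528 in P60 controls and 283, 265 and 280 in cHET. It was lower without overlap in cHET, although control 1 lay close to the cHET values (-0.67 ± 0.19, adjusted p = 0.69, limma), and it was named after its values were seen. Fdft1, squalene synthase, was lower without overlap at -0.07, as 1 of 20 cholesterol genes (5% against 4%). It has other values in the authors' deposited table. Of 13 tested antigen presentation genes 0 were called, 8 were above 0 (61.5% against 53.1%) and 2 were higher without overlap (15.4% against 6.17%). Those 2 were Nlrc5, a regulator of MHC class I genes, at 0.87 and Psmb8, an immunoproteasome subunit, at 0.31. The class I genes H2-K1 (0.02), H2-D1 (-0.04) and B2m (-0.01) overlapped between groups. Fdft1, Nlrc5 and Psmb8 were also chosen after their values were seen.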
